A study of Rattus norvegicus with 8 samples.

Results

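The collagens, the enzymes that modify and crosslink them, and the small leucine-rich proteoglycans were described in enamel organs of the rat incisor at the secretory and the maturation stage of enamel formation. Members were the probes whose gene symbol was a collagen chain other than Col17a1, a prolyl 4-hydroxylase alpha subunit, a lysyl hydroxylase, a lysyl oxidase, one of the leucine-rich proteoglycans Dcn, Bgn, Fmod, Lum, Omd, Ogn, Aspn and Prelp, or Sparc, Postn, Fn1 or Serpinh1. This rule found 52 genes with 55 probes, among 21558 gene symbols with 22523 probes on the array, and 49 of the 55 were detected on at least 1 array. Total RNA came from 4 male Wistar Hannover rats, 4 weeks old, for which no treatment is named, and each rat gave 1 sample of each stage, so that 4 arrays stood for each stage. The cell layer was lifted from freeze-dried mandibles after the overlying bone had been removed. It holds several cell types, and fewer cells of a type and less RNA per cell cannot be told apart in such samples.

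Collagens are built from 3 alpha chains wound into a helix. In the endoplasmic reticulum, prolyl hydroxylases stabilise the helix, lysyl hydroxylases prepare the crosslinks and Serpinh1 chaperones the folded molecule. Outside the cell, lysyl oxidases crosslink the fibrils, and small leucine-rich proteoglycans such as decorin and fibromodulin bind to them and limit or guide their growth. Enamel itself is laid down on a matrix without collagen, and the collagens of an enamel organ sample are known from its connective tissue, its vessels and its basement membranes.

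The stage labels were checked first. All 8 arrays correlated more with the arrays of their own stage than with the other stage. Klk4, the protease of maturation ameloblasts, was 7.57 higher in maturation on the log2 scale, and Enam, an enamel matrix protein, fell by 4.98. Enam had 9.08, 5.17, 5.53 and 8.22 in maturation samples of rats 1 to 4, all below 11.94 to 12.03 in secretory samples, and fell by 5.68 without maturation replicate 1 and by 4.37 without maturation replicate 2. For maturation replicates 2, 3 and 4 the source field of the labels says secretory, while titles and descriptions, which were used here, say maturation. The total signal was between 11881691 and 12046793 on the secretory arrays and between 13355073 and 16122665 on the maturation arrays, and 46 or 47 member probes were detected on each secretory array and 45 on each maturation array.

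Values are log2 signals after background correction and quantile normalization, and each log2 fold change gives maturation over secretory, with its standard error (SE) from limma. A probe was called when its p-value, adjusted by Benjamini-Hochberg over all 22523 probes, was below 0.05 and its change at least 1.8-fold. Of the 55 member probes 16 were called, 29.1%, against 7.75% of all probes and 12.9% of all probes detected on at least 1 array. Higher in maturation were 9 members, 16.4%, against 4.6% of all probes, and lower were 7 members, 12.7%, against 3.15% of all probes. With median scaling in place of quantile normalization the called probes of the whole array shifted from 59.3% to 77.6% higher, and the members from 56.25% to 61.1%. By the adjusted p alone 26 members passed, 47.3%, against 26.9% of all probes. Of these members 15 were higher and 11 lower, and of all probes 12.8% passed higher and 14% lower. The values of the stages did not overlap for 26 members, 47.3%, and for 27.7% of all probes. Among probes detected on at least 1 array, 53.1% of the members and 44.0% of all passed the adjusted p, and 53.1% of the members and 43.1% of all did not overlap. The median log2 fold change was 0.07 over the members and -0.01 over all probes.

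**Figure D1:**
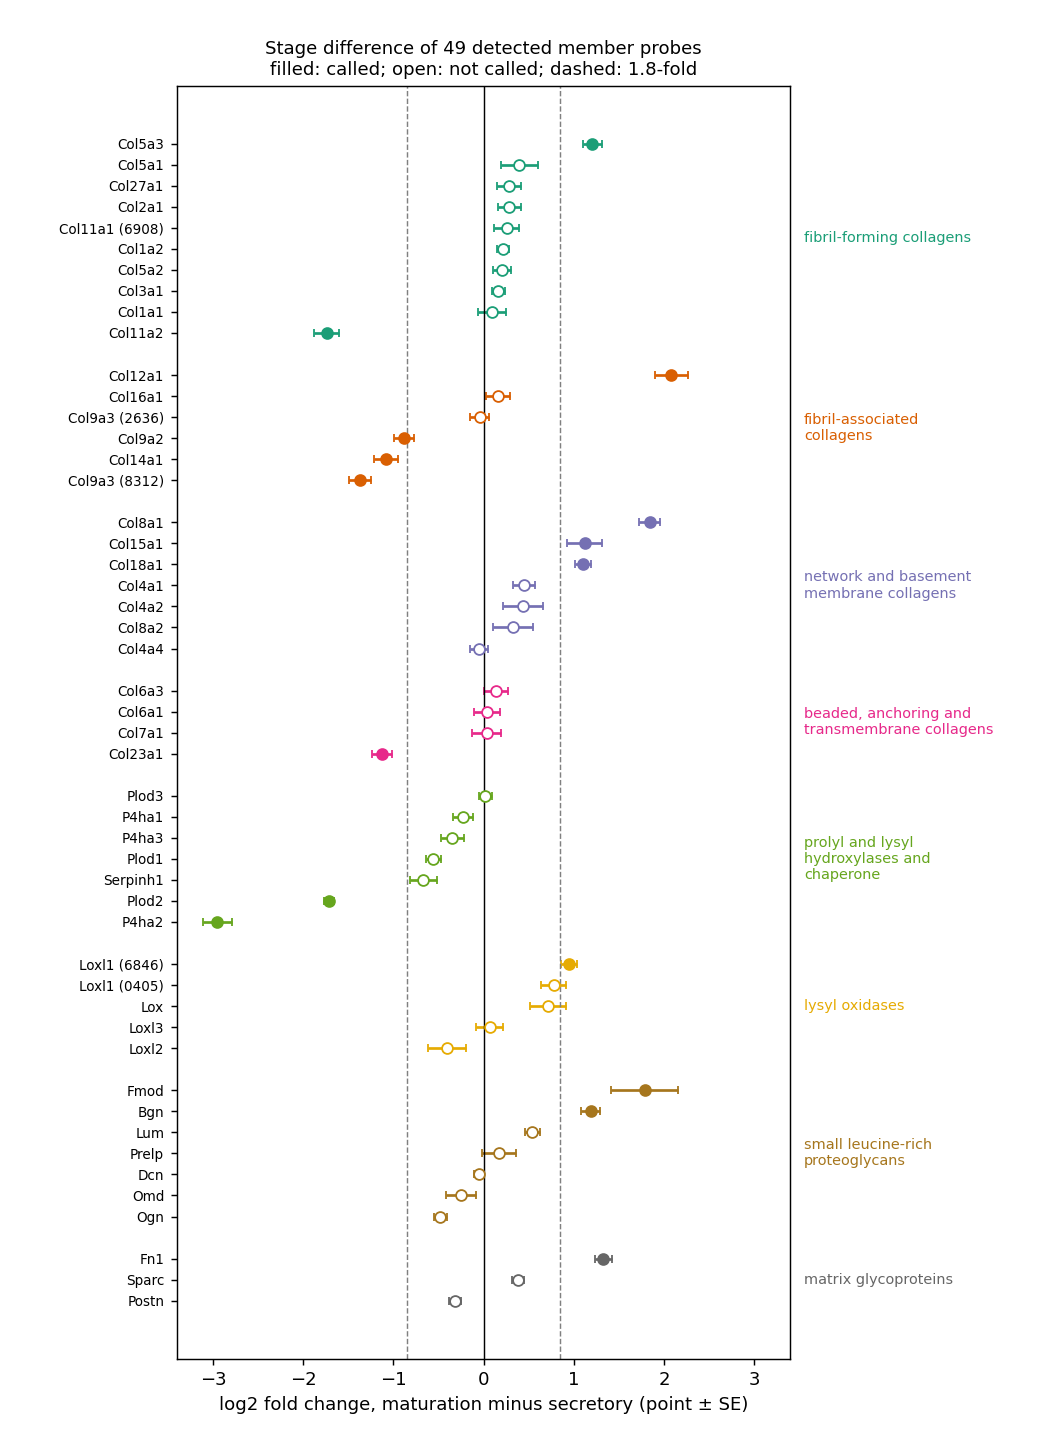
Log2 fold change, maturation minus secretory, with its SE for the 49 detected member probes, in 8 classes; filled points are called, open points are not, dashed lines mark 1.8-fold, and the digits in brackets end the identifier of a probe where a gene has several. P4ha2 lies farthest to the left at -2.95 and Col12a1 farthest to the right at 2.08, and most fibril-forming collagens lie between 0 and the dashed line.

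Types I, III and V make up most fibrils of soft connective tissue and dentine. Among the fibril-forming collagens, their chains Col1a1, Col1a2, Col3a1, Col5a1 and Col5a2 moved little, while Col5a3 rose and Col11a2 fell. Col1a1 had secretory values of 12.10, 12.58, 12.52 and 12.17 in rats 1 to 4 and maturation values of 12.79, 12.45, 12.36 and 12.14. The stages overlapped, with a log2 fold change of 0.09 (SE 0.15, adjusted p = 0.78). Col1a2, its partner chain in type I collagen, had 14.37, 14.54, 14.62 and 14.47 in secretory and 14.69, 14.73, 14.76 and 14.66 in maturation samples. The lowest maturation value of Col1a2 lay just above the highest secretory value, and its change of 0.21 (SE 0.07, adjusted p = 0.041) was far below 1.8-fold. Col3a1 changed by 0.16 (adjusted p = 0.14), Col5a1 by 0.40 (adjusted p = 0.22) and Col5a2 by 0.20 (adjusted p = 0.20), and none passed.

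Col5a3, a minor type V chain, stood at 4.72, 4.99, 5.21 and 4.77 in secretory samples and at 6.15, 6.07, 6.08 and 6.21 in maturation samples. The groups lay apart, and Col5a3 was detected on 1 of the 4 secretory arrays and on all 4 maturation arrays. The log2 fold change was 1.20 (SE 0.10, adjusted p = 2.2e-05), and it was 0.43 without background correction and 0.69 with an offset of 50, both under 1.8-fold. In all 4 rats it exceeded the change of Col5a2, on average by 1.0 (SD 0.18).

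Col11a2, a chain of type XI collagen known from cartilage, had 7.37, 7.17, 7.82 and 7.58 in secretory samples and 5.61, 5.98, 5.78 and 5.62 in maturation samples. Every maturation value lay below every secretory value, and the fold change was -1.74 (SE 0.14, adjusted p = 1.4e-05), or 3.34-fold, and it was -0.90 without background correction. Its partner chain Col11a1 did not follow. Of the Col11a1 probes, ILMN_1376908 changed by 0.25 (adjusted p = 0.27) and ILMN_1375797 was not detected on any array. Col2a1, the main cartilage collagen, was detected on no secretory array and on 2 maturation arrays, and of the 7 other chondrocyte markers Hapln1 was called, at -0.88, while 2 were detected on no array. The Hapln1 call was lost under all 5 other background or scaling settings and without maturation replicate 1 or 4 or secretory replicate 4. The summed linear signal of the chondrocyte list was between 324.79 and 366.814 on the secretory and between 274.585 and 308.828 on the maturation arrays, and the part of such cells in the values of Col11a2 and the type IX chains was not tested. Col27a1 changed by 0.29 (adjusted p = 0.17).

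The fibril-associated collagens sit on the surface of fibrils and do not form fibrils of their own. Among their 8 probes, Col12a1 rose and Col14a1, Col9a2 and one Col9a3 probe fell. Col12a1, a long chain found on fibrils of dense connective tissue, had 7.27, 8.10, 8.05 and 7.78 in secretory samples and 9.80, 10.01, 10.11 and 9.61 in maturation samples. The groups were far apart, at a log2 fold change of 2.08 (SE 0.18, adjusted p = 2.4e-05), the largest rise among the members, or 4.23-fold. Col14a1, a chain of similar build, ran the other way, from 11.95, 12.03, 12.08 and 11.91 in secretory to 11.29, 10.60, 10.99 and 10.77 in maturation samples. The groups did not overlap, and Col14a1 fell by 1.08 (SE 0.13, adjusted p = 0.00019). The changes of Col12a1 and Col14a1 lay 3.16 apart (SD 0.15 over 4 rats), between 2.98 and 3.34 in each rat.

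Type IX collagen decorates the fibrils of cartilage and joins chains from 3 genes. The Col9a3 probe ILMN_1358312 had 11.29, 11.53, 11.69 and 11.30 in secretory and 10.37, 9.88, 10.04 and 10.05 in maturation samples. These groups were separate, with a fall of 1.37 (SE 0.12, adjusted p = 2.7e-05). A second Col9a3 probe, ILMN_1372636, read 6.03, 6.21, 6.5 and 6.42 and then 6.35, 6.28, 6.12 and 6.22, an overlap with a change of -0.04 (adjusted p = 0.85). The probes of Col9a3 thus disagreed, by -1.32 on the log2 scale on average and in the same direction in all 4 rats (SD 0.28), and nothing in the files says which transcript each one reads. Col9a2 was detected on all 4 secretory arrays, at 5.25, 5.79, 5.40 and 5.63, and on none of the maturation arrays. Its fitted change of -0.88 (adjusted p = 0.00021) was the call nearest to the threshold on the lower side, and since the maturation signal has only a bound, it was at least 1.48-fold lower. This bound is under 1.8-fold, and the call was also lost without background correction, at -0.31, with an offset of 50, at -0.44, with normexp without negative controls and without secretory replicate 2, both at -0.81. Col9a1 and Col19a1 were detected on no array, and Col16a1 changed by 0.16 (adjusted p = 0.50).

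Among the network-forming and basement membrane collagens, 3 of 8 probes rose and none fell. Col8a1, a short chain that builds hexagonal lattices under endothelium and in vessel walls, had 6.76, 7.14, 7.11 and 6.82 in secretory and 8.73, 8.95, 8.93 and 8.58 in maturation samples. The groups lay well apart, at a log2 fold change of 1.84 (SE 0.12, adjusted p = 2.7e-06). Col8a2, its relative, changed by 0.33 (adjusted p = 0.37), which was 1.51 less than Col8a1 (SD 0.33 over 4 rats).

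Col15a1 and Col18a1 encode the collagens of basement membranes that carry heparan or chondroitin sulfate chains. Col18a1, the source of endostatin, had 8.91, 8.98, 9.03 and 8.63 in secretory and 9.96, 10.02, 10.07 and 9.89 in maturation samples, without overlap, and a change of 1.10 (SE 0.09, adjusted p = 1.5e-05). Col15a1 had 7.22, 7.66, 7.54 and 6.69 and then 8.32, 8.62, 8.43 and 8.24, also without overlap, and changed by 1.12 (SE 0.19, adjusted p = 0.0017), and by 0.79 without background correction, below the threshold. Type IV collagen, the scaffold of basement membranes, moved less. Col4a1 had 10.79, 11.19, 11.17 and 10.84 in secretory and 11.51, 11.48, 11.57 and 11.22 in maturation samples, and passed the adjusted p at 0.45 (SE 0.12, adjusted p = 0.017) without reaching 1.8-fold. Col4a2, its partner chain, changed by 0.44 (adjusted p = 0.20) and Col4a4 by -0.05 (adjusted p = 0.82). Col4a5 was detected on no array. The change of Col18a1 exceeded that of Col4a1 by 0.65 (SD 0.24), in all 4 rats.

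Some endothelial markers moved beside these collagens, with 2 of 9 called higher, Cldn5 at 1.11 and Vwf at 0.88, and none lower. The brightest of the 9, Emcn, changed by -0.002 (adjusted p = 0.99). Pericyte and smooth muscle markers were called higher for 4 of 10, among them Cspg4 at 1.42. Of these, 1 endothelial marker was called without maturation replicate 3, without secretory replicate 1 or 4, or without background correction, and no pericyte marker was called without background correction and 1 with an offset of 50. The summed linear signal of the endothelial list was between 5251.21 and 6481.93 on the secretory and between 7091.46 and 9013.96 on the maturation arrays. That of the pericyte and smooth muscle list overlapped, at 2251.88 to 3164.19 on the secretory and 2695.46 to 3164.42 on the maturation arrays. Its brightest marker, Tagln, changed by -0.27 (adjusted p = 0.17) and was not called. The part of vessels in the collagen values was not tested.

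Type VI collagen forms beaded filaments around cells, and its chains did not pass the test. Col6a1 had 12.14, 12.57, 12.60 and 12.09 in secretory and 12.44, 12.38, 12.59 and 12.14 in maturation samples, an overlap with a change of 0.04 (SE 0.14, adjusted p = 0.90). Col6a3 changed by 0.13 (adjusted p = 0.57), and Col6a2 was detected on no array. Col7a1, of the anchoring fibrils below epithelia, changed by 0.03 (adjusted p = 0.93). Col23a1, a collagen that spans the cell membrane, was detected on all 4 secretory arrays, at 5.73, 5.81, 6.19 and 5.91, and on no maturation array. It was at least 1.95-fold lower in maturation (fitted change -1.13, adjusted p = 4.5e-05), and this change was -0.39 without background correction and -0.61 with an offset of 50, both under 1.8-fold.

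**Figure D2:**
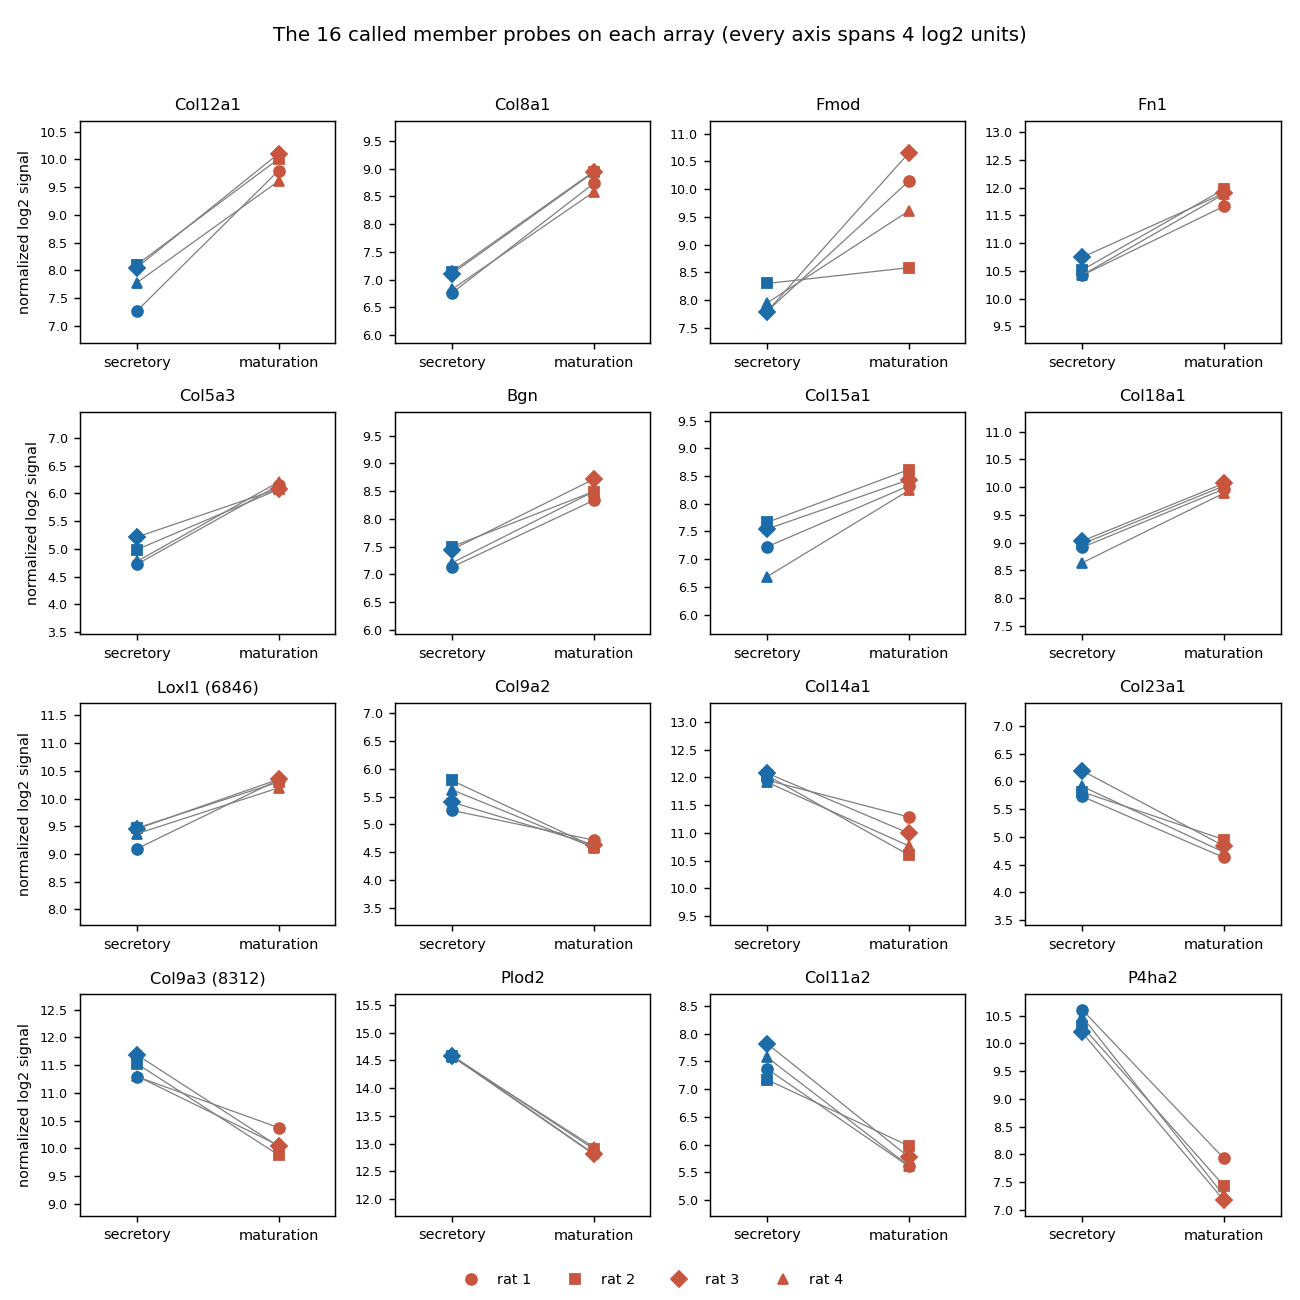
Normalized log2 signal of the 16 called member probes on each array, secretory on the left and maturation on the right of each panel, with a line joining the samples of a rat; every vertical axis spans 4 log2 units. The stages do not overlap in any panel; the 4 secretory values of Plod2 nearly coincide, and Fmod in maturation ranges from 8.58 to 10.65.

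Of the 7 probes for the hydroxylases and the chaperone, P4ha2 and Plod2 were called lower and none was called higher. P4ha2, an alpha subunit of prolyl 4-hydroxylase, had 10.61, 10.31, 10.20 and 10.48 in secretory and 7.93, 7.44, 7.17 and 7.26 in maturation samples. The groups lay far apart, at -2.95 (SE 0.16, adjusted p = 1.1e-06), or 7.73-fold lower, the largest fall among the members. P4ha1, which encodes the other widely expressed alpha subunit, had 8.95, 8.98, 9.34 and 9.33 and then 8.89, 8.94, 9.07 and 8.77. The P4ha1 values overlapped, with a change of -0.23 (SE 0.11, adjusted p = 0.17), and the change of P4ha2 minus that of P4ha1 was -2.72 on average (SD 0.095), with all 4 rats alike. P4ha3 was detected on 3 secretory and no maturation arrays and was at least 1.12-fold lower in maturation (fitted change -0.35, adjusted p = 0.075), which did not pass.

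Plod2 hydroxylates lysines of the collagen telopeptides, the sites of the most stable crosslinks. It had 14.58, 14.59, 14.59 and 14.56 in secretory and 12.81, 12.90, 12.82 and 12.94 in maturation samples. Both groups were narrow and separate, at -1.71 (SE 0.05, adjusted p = 4.8e-08), or 3.28-fold lower. Plod1, which acts on the helix, fell short of 1.8-fold at -0.56 (SE 0.08, adjusted p = 0.00063), with no overlap between 10.16 to 10.53 in secretory and 9.75 to 9.91 in maturation samples. Plod3, which also transfers sugars to hydroxylysine, changed by 0.02 (adjusted p = 0.89). Serpinh1, the collagen chaperone, had 6.20, 5.77, 5.99 and 6.04 in secretory and 5.74, 5.02, 5.36 and 5.23 in maturation samples, just without overlap, at -0.67 (SE 0.15, adjusted p = 0.0076), the lower change nearest to the fold threshold from the outside. This change lay between -0.67 and -0.24 over the alternatives to the processing. Before background correction and normalization the Serpinh1 signals overlapped, at 135.59 to 146.82 in secretory and 128.59 to 164.22 in maturation samples.

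The promoters of P4ha2 and Plod2, which fell together, are shown with that of P4ha1, which did not pass the test. Prolyl 4-hydroxylase and lysyl hydroxylase genes are known targets of hypoxia-inducible factor, whose core site is ACGTG or GCGTG. The sequences are the 250 bases before the annotated gene start from RefSeq, build GRCr8, plus strand, with ACGTG in capitals, and likewise GCGTG, each also where its reverse complement stands. The motifs were chosen after the values had been seen. P4ha2 lies at chr10:38743644-38743893, Plod2 at chr8:101964068-101964317 and P4ha1 at chr20:27844796-27845045.
P4ha2: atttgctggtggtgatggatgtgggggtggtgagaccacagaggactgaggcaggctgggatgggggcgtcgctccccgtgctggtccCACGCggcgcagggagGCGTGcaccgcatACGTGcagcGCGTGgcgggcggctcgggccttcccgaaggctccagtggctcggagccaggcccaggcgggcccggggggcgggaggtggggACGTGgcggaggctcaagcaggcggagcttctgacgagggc
Plod2: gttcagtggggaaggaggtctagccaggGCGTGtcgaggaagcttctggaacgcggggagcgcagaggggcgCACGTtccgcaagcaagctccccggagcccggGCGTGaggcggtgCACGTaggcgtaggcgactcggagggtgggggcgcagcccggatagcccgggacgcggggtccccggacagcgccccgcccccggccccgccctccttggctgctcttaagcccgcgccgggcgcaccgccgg
P4ha1: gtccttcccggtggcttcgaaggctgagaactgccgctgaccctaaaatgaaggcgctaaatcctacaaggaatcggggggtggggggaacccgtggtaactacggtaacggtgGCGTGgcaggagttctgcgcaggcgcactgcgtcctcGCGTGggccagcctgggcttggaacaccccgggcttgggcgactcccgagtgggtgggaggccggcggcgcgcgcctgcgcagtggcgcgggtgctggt
All 3 windows hold matches, 5 in P4ha2, 4 in Plod2 and 2 in P4ha1, which begin 162, 146, 133, 124 and 41 bases before the gene start in P4ha2, 222, 178, 146 and 133 bases before it in Plod2 and 136 and 99 bases before it in P4ha1. Of the 39 member genes with a promoter entry 18 held at least 1 of these cores on either strand, 46.2%, against 36.7% of 33469 promoters, and 6 held at least 2 matches, 15.4% against 16%. Counted by itself, ACGTG was in 3 of the 39, P4ha2, Plod2 and Col4a5, 7.69% against 16.6%, and GCGTG in 17, 43.6% against 25.9%. CCAAT, or its reverse complement, was in 8 of the 39, 20.5%, and in 34.0% of all. These matches are letters in a window and say nothing of binding.

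Lysyl oxidases oxidise lysines so that fibrils crosslink, and of their 6 probes 1 was called, a Loxl1 probe that rose. The Loxl1 probe ILMN_1376846 had 9.09, 9.47, 9.45 and 9.36 in secretory and 10.34, 10.30, 10.35 and 10.19 in maturation samples. The groups were separate, at 0.95 (SE 0.09, adjusted p = 3.5e-05), the call nearest to the threshold on the higher side. The second Loxl1 probe, ILMN_1530405, had 7.87, 8.38, 8.41 and 8.14 and then 9.06, 8.68, 9.15 and 9.01. It was also without overlap, at 0.78 (SE 0.14, adjusted p = 0.002), just under 1.8-fold, and it was called at 1.13 with median scaling, 0.86 with cyclic loess, 0.88 without maturation replicate 2 and 0.85 without secretory replicate 3. Lox had 10.77, 11.59, 11.72 and 11.75 in secretory and 12.11, 12.17, 12.35 and 12.06 in maturation samples, and changed by 0.71 (SE 0.20, adjusted p = 0.025), with secretory replicate 1 far below the others. Lox was called at 0.93 with median scaling. Loxl2 at -0.41 (adjusted p = 0.22) and Loxl3 at 0.07 (adjusted p = 0.83) did not pass, and Loxl4 was detected on no array.

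The 7 small leucine-rich proteoglycans were detected on all 8 arrays, and Fmod and Bgn rose while none was called lower. Fmod, which binds type I collagen and steers fibril thickness and crosslinking, had 7.80, 8.30, 7.79 and 7.95 in secretory and 10.14, 8.58, 10.65 and 9.61 in maturation samples. Every maturation value was above every secretory value, but rat 2 moved by 0.28 while rat 3 moved by 2.86. The change was 1.79 (SE 0.37, adjusted p = 0.0052), with an SD of 0.88 among the maturation and 0.24 among the secretory samples. Bgn, biglycan, a proteoglycan with chondroitin or dermatan sulfate chains common in mineralised tissue, had 7.13, 7.5, 7.44 and 7.20 and then 8.33, 8.49, 8.71 and 8.49, with a change of 1.19 (SE 0.11, adjusted p = 2.7e-05) and no overlap.

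Dcn, decorin, the closest relative of Bgn, had 13.13, 13.32, 13.28 and 13.23 in secretory and 13.16, 13.20, 13.16 and 13.23 in maturation samples. The Dcn values overlapped, at -0.05 (SE 0.06, adjusted p = 0.65). Lum, lumican, which organises thin fibrils, had 13.57, 13.78, 13.86 and 13.87 and then 14.39, 14.21, 14.24 and 14.39, with no overlap and a change of 0.54 (SE 0.08, adjusted p = 0.00084) below 1.8-fold. Ogn, osteoglycin, had 12.87, 13.11, 13.16 and 12.94 and then 12.50, 12.56, 12.56 and 12.52, also without overlap, at -0.48 (SE 0.07, adjusted p = 0.00086). Omd, osteomodulin, changed by -0.25 (SE 0.17, adjusted p = 0.36) and Prelp by 0.17 (SE 0.19, adjusted p = 0.63), both with overlapping stages.

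Several of these genes are neighbours on a chromosome with no protein-coding gene between them in the GRCr8 annotation, and their changes are set side by side. Prelp and Fmod adjoin on chromosome 13, and the change of Fmod exceeded that of Prelp by 1.62 (SD 0.80 over 4 rats). Dcn and Lum adjoin on chromosome 7, and Lum exceeded Dcn by 0.59 (SD 0.13) in all 4 rats. Ogn and Omd adjoin on chromosome 17 at -0.48 and -0.25. Col4a1 and Col4a2 on chromosome 16 stood at 0.45 and 0.44, and Col3a1 and Col5a2 on chromosome 9 at 0.16 and 0.20.

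All 3 matrix glycoproteins passed the adjusted p, and Fn1 alone passed the fold threshold. Fn1, fibronectin, on which cells assemble collagen, had 10.42, 10.52, 10.75 and 10.42 in secretory and 11.66, 11.97, 11.90 and 11.88 in maturation samples. The groups were clearly separate, at 1.33 (SE 0.09, adjusted p = 5.8e-06), or 2.51-fold. Sparc, osteonectin, a collagen-binding protein of bone and dentine, had 13.58, 13.80, 13.84 and 13.74 and then 14.09, 14.15, 14.17 and 14.07, without overlap, at 0.38 (SE 0.07, adjusted p = 0.0023). Postn, periostin, a product of periodontal ligament and periosteum, had 12.83, 12.82, 12.78 and 12.76 and then 12.63, 12.44, 12.34 and 12.51, without overlap, at -0.32 (SE 0.07, adjusted p = 0.007).

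The rats did not move equally. Over the 55 members the median difference between the stages was 0.25 in rat 1 and 0.01, 0.03 and 0.03 in rats 2, 3 and 4. Secretory replicate 1 held the lowest secretory value for 27 of the 49 detected member probes, 55.1%, and for 26.7% of all detected probes. Maturation replicate 4 held the lowest maturation value for 24 of the 49, against 20.8% of all detected probes. Col1a1 rose by 0.70 in rat 1 and fell by 0.14, 0.17 and 0.04 in the others. Without secretory replicate 1 the same 16 member probes were called. Marker sums moved with that array. It had the lowest summed signal of the secretory arrays in 8 of the 11 marker lists, among them fibroblast and dental mesenchyme, 16240.5, and odontoblast and osteoblast, 16109.3 against 22803.3 to 31215.9, but also osteoclast, endothelium, pericyte and macrophage. It had the highest for epithelium, 37938.1, and secretory ameloblast, 63409.3. The part of these cells in the member values was not tested.

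**Figure D3:**
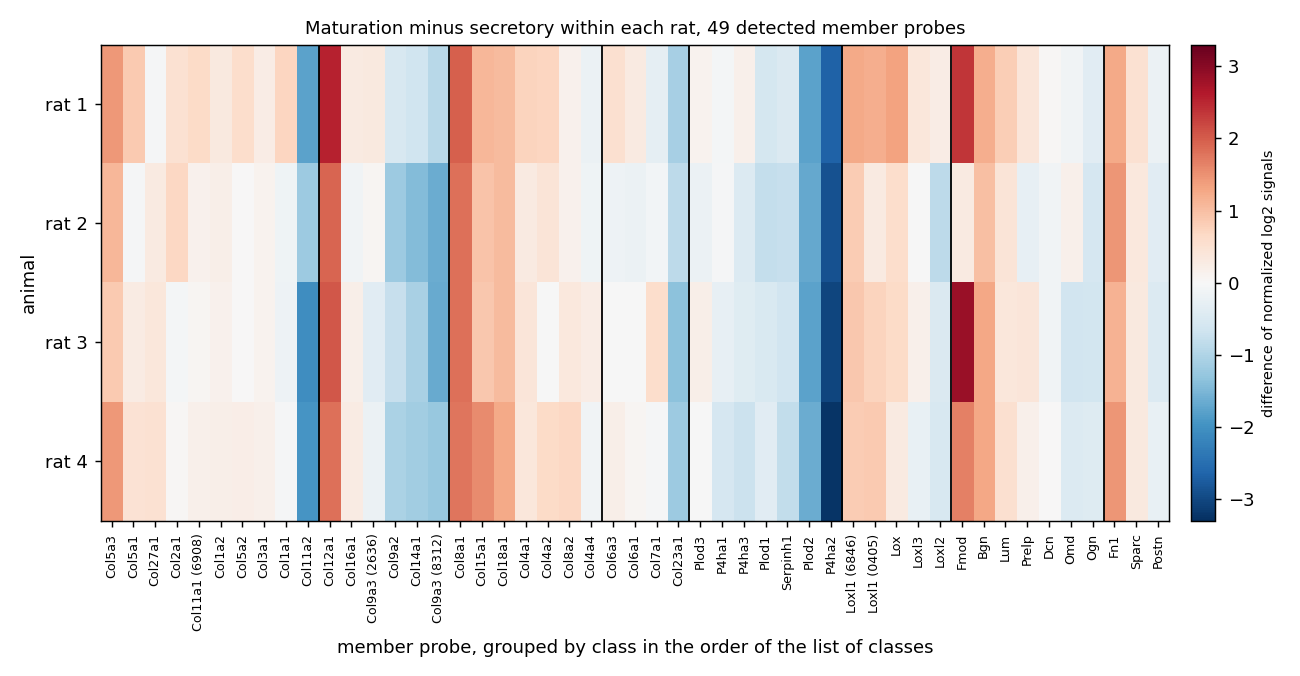
Difference of normalized log2 signals, maturation minus secretory, within each of the 4 rats (rows) for the 49 detected member probes (columns, with black lines between the classes); red is higher and blue lower in maturation. The called members keep their colour in all rats, rat 1 is redder among the fibril-forming collagens, and Fmod is pale in rat 2.

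Lists of genes that work with the members were read beside them, each gene, named by its gene ID where that has a current symbol, by its brightest probe. Of 15 genes for collagen folding and secretion, P3h2, a prolyl 3-hydroxylase, rose by 1.84 (adjusted p = 1.2e-05), and P3h1, of the same family, at -1.10 (adjusted p = 3.4e-06) and Sec23a, a coat protein for export of procollagen, at -1.03 (adjusted p = 6.9e-05) fell. The median of that list was -0.39, against -0.01 over all probes and -0.04 over all detected probes. The adjusted p was passed downward by 8 of the 15, among them Crtap, Ppib and P4hb, and upward by 3, P3h2, Creb3l1 and Colgalt2. All 15 were detected, and of all 13512 probes detected on at least 1 array 3107 passed downward and 2838 upward. With median scaling none of the 15 was called lower, and without background correction 1 was. Of 9 procollagen processing genes, the propeptidase Bmp1 at 0.98, its enhancer Pcolce at 1.02 and Cthrc1 at 1.45 rose, while Tll1, a propeptidase related to Bmp1, fell by 1.72 (adjusted p = 1.1e-06), and the median was -0.02. Without background correction, or with an offset of 50, 2 of the 9 were called higher.

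Of 9 genes for collagen breakdown, 4 rose and none was called lower, with a median of 0.28. The probe that the files name Mrc2, a collagen uptake receptor, carries the gene ID of Pla2r1 and was left out. Mmp13, a collagenase, rose by 3.38 (adjusted p = 3.6e-08), Ctsk, the collagen-degrading cathepsin of osteoclasts, by 1.13, Fap by 1.03 and Mmp14 by 0.90, and 3 of the 9 were called higher without secretory replicate 4. Osteoclast markers, which include Ctsk, were called higher for 3 of 5 and macrophage and leukocyte markers for 9 of 13, with none lower in either list, and the part of these cells was not tested. Of 6 collagen receptors, Itga10, an integrin subunit known from chondrocytes, was called lower and was undetected in maturation, at least 2.62-fold lower (fitted change -1.58), a call lost without background correction, and the list median was 0.21. Of 8 other small leucine-rich repeat proteins, Podnl1 rose by 1.67 and the median was 0.17.

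Marker lists for cells that make collagen moved in both directions. Of 14 fibroblast and dental mesenchyme markers, Mfap5, Prrx1 and Thy1 rose and Cd248 fell, with 1 called higher without background correction, and the summed signal was between 16240.5 and 19350.3 on the secretory and between 13505.9 and 16586 on the maturation arrays. Of 12 odontoblast and osteoblast markers, Ibsp, bone sialoprotein, rose by 1.95, while Dspp, the dentine sialoprotein made by odontoblasts, was detected on no maturation array and at least 34.0-fold lower there. Without maturation replicate 2 or secretory replicate 3, 2 of these 12 were called higher. Of 6 skeletal muscle markers Actn3 was called lower. Of 9 epithelial markers 4 were higher, 2 without maturation replicate 3 or secretory replicate 2, and 2 lower, of 4 secretory ameloblast markers 2 were lower, and all 3 maturation ameloblast markers were higher.

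**Figure D4:**
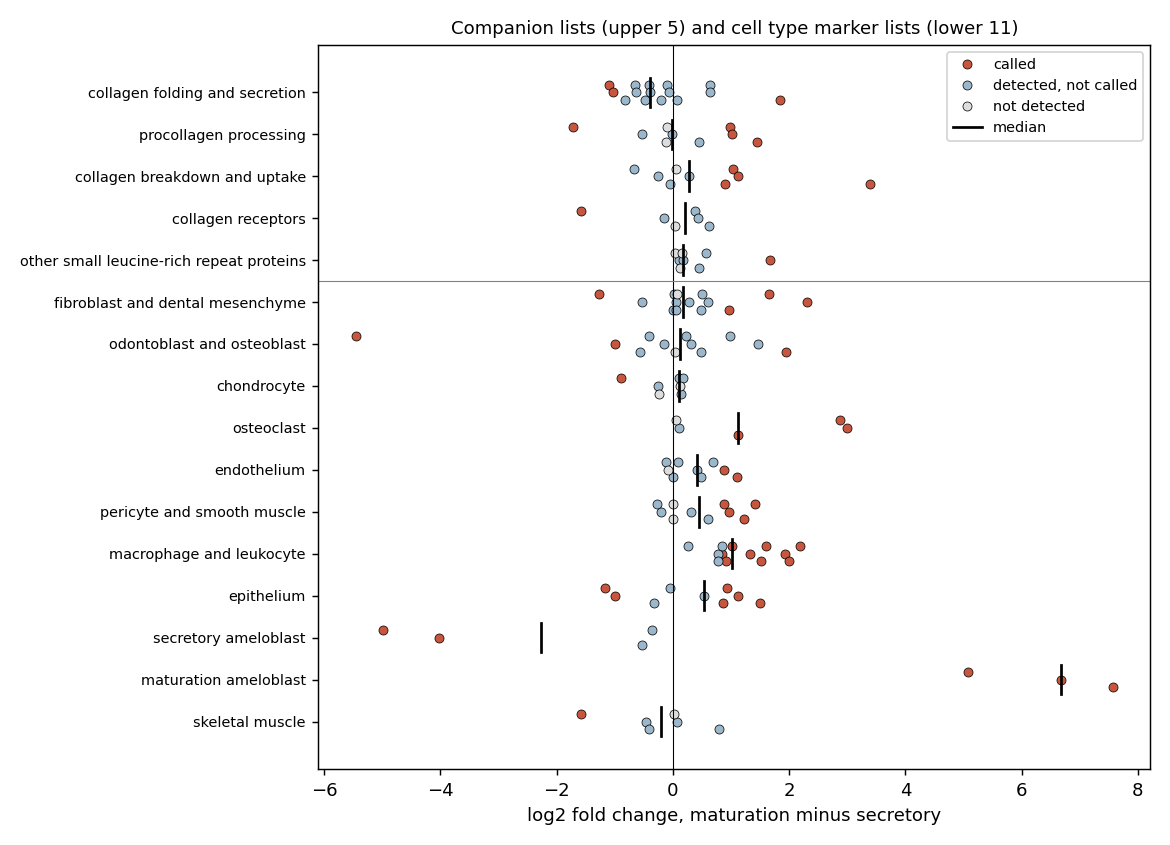
Log2 fold change, maturation minus secretory, of each gene in the 5 companion lists (above the grey line) and the 11 marker lists (below it), with red for called, blue for detected and not called, grey for not detected, and a bar at the median. The macrophage and leukocyte list lies to the right of 0 throughout with a median of 1.02, while the folding and secretion list lies mostly to the left.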

How the data were processed

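Total RNA from 4 rats was hybridised to 8 Illumina RatRef-12 arrays. The authors deposited mean bead signals as intensity, neither background-corrected nor normalized, each with a detection p-value, a bead count and a bead standard error; the summarising software is not given in the sources used here. Stage and replicate came from titles and descriptions. Using R 4.3.3 and limma 3.58.1, neqc was run with its negative controls inferred from detection p-values and an offset of 16; it corrects background, applies quantile normalization and returns log2 values. The 22523 probes were all fitted unpaired with lmFit and eBayes; detected means a detection p below 0.05. Where a stage had no detection, its fold is a lower bound, from the higher of the lowest detected signal and the probe's own. Number of arrays and median beads per probe (41 or 42) limit the precision.

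The members, lists and tests were chosen with earlier results of these data known. Named members were all members by class, with every called, disagreeing or borderline probe in full; each gene of a list, by gene ID, was read by its brightest probe. The result of 1 marker gene is not reported here. Member symbols were checked by gene ID against RefSeq GRCr8 for all 55 probes.

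Each rat gave both stages, and samples with equal replicate numbers were taken as 1 rat, though the titles number replicates without naming a rat. Deviations from the stage means of a rat's 2 samples correlated at 0.195, 0.129, 0.219 and 0.234 over 11233 probes. With samples of the other rats the mean was -0.071, -0.043, -0.061 and -0.083, which centring on the stage means pushes to the opposite sign. The methods name a Student test and no pairing. On simulated arrays with 200 probes changed by 1.5 on the log2 scale, 98.5% were recovered, with 3 false calls among 22523. Alternatives were normexp without controls, cyclic loess, median scaling, no background correction, a larger offset of 50, a detection filter (at least 4 arrays), the Student test, the rat as a block, the adjusted p alone and each array left out. Undetected probes at their bounds, and probes named by gene ID, were added after seeing the data.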

Additional observations from a re-analysis of the deposited data

Results flagged for a closer look

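Lox in secretory replicate 1 stood apart from the other secretory samples, at 10.77 against 11.59 to 11.75. It was the only value to do so among 94 sets of 4 member values, where chance would give about 4.7.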

How the results depend on the processing

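Of the 16 called member probes, 12 kept their call and direction under all 9 alternatives and with each array left out, and the exceptions were Col15a1, Col23a1, Col5a3 and Col9a2; with the fold threshold kept, 37 of the 39 other probes stayed uncalled, all but Lox and the second Loxl1 probe. No call changed direction. Without the fold threshold, 15 members were higher and 11 lower, and with all probes called in this way the count was 6051 in place of 1745. Without background correction 927 of all probes were called, and 7 members were higher and 5 lower. With an offset of 50, 8 members were higher and 5 lower. Median scaling moved the median log2 fold change of the members to 0.23 and gave 11 higher and 7 lower. With each array left out, 9 to 10 members were higher and 6 to 7 lower, the median was 0.05 to 0.13 and 1705 to 1806 of all probes were called. The fit with the rat as a replicate block called 9 members higher and 7 lower, 1750 of all probes, and left each member call as it was. With undetected probes at their bounds, 9 were higher and 6 lower. The causes were not tested. Precision is limited by 4 arrays per stage, and by signal near background for Col2a1, Col4a4, Col5a3, Col8a2, Col9a2, Col23a1 and P4ha3, which were undetected on some arrays. Serpinh1 also lay near background, at 5.02 to 6.20, though it was detected on every array.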

Other observations

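The array's symbols are old, and 8 further probes carry a gene ID that is now a collagen or Aspn. Col13a1, a collagen that spans the membrane of many cells and gathers at their contacts with the matrix, had 5.90, 5.27, 5.57 and 5.42 in secretory and 7.15, 7.29, 7.03 and 7.10 in maturation samples of rats 1 to 4. The groups did not overlap, and the log2 fold change was 1.60 (SE 0.13, limma, adjusted p = 1.2e-05). Col23a1, another membrane collagen, was the one member of its class called, in the other direction. With the 8 probes counted as members, 10 were higher and 7 lower. Aspn, asporin, the neighbour of Omd and a relative of decorin, had 6.66, 7.19, 6.39 and 7.03 in secretory and 6.58, 6.14, 5.84 and 6.19 in maturation samples, which overlapped, at -0.63 (SE 0.20, limma, adjusted p = 0.041), below 1.8-fold. Col4a3, Col6a4 and Col6a6 were detected on no array, and Col6a5, Col20a1 and Col28a1 on 1 or 2 of the 8 arrays.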
